A study of Mus musculus with 4 samples.

Results

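The enzymes described here build, sulfate and edit the glycosaminoglycan chains of proteoglycans, and their genes were taken as a list of 40: 4 that make the activated sugars and sulfate, 5 of the linker, 17 of the heparan sulfate branch and 14 of the chondroitin and dermatan sulfate branch. All 40 were among the 21154 genes named on the array through RefSeq accessions. RNA was taken at passage 5 from primary mouse mesenchymal stromal cells (MSCs, adherent precursor cells of connective tissue) in culture that carried a short hairpin RNA (shRNA) from a retrovirus. In the knockdown group, shIslr, hairpins 1, 2 and 3 are aimed at separate stretches of Islr, which encodes the surface and secreted protein Meflin, and each is on 1 array. The comparison group, shControl, is 1 array of the same kind of cells with a control hairpin. The labels name no strain, age or sex of the mice and do not say whether the 4 cultures shared a preparation, so the spread over n = 3 is that between hairpins and may be technical.

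A glycosaminoglycan chain starts on a serine of a core protein with a short linker of xylose, galactose and glucuronic acid. The next sugar decides its kind: N-acetylglucosamine leads to heparan sulfate and N-acetylgalactosamine to chondroitin sulfate, which becomes dermatan sulfate where an epimerase turns glucuronic into iduronic acid. Sulfotransferases then write sulfate patterns along the chain, on which growth factors, chemokines and matrix proteins bind. In stromal cells such chains hold factors of the FGF, Wnt, Hedgehog and BMP families at the cell surface and in the matrix.

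The arrays gave a processed signal per probe, in arbitrary linear units after background subtraction, which is printed below as deposited. Differences are log2, hairpin minus control, after each array was scaled to its 75th percentile (414.7, 435.3 and 433.5 on hairpins 1 to 3, and 442.5 on the control array), and a mean ± SD is over the 3 hairpins. Of the probes' features, 49.4%, 51.3% and 53.8% were well above background on hairpins 1 to 3, against 50.9% on the control array. Islr had signals of 11.0, 70.5 and 3.44 on hairpins 1 to 3, against 454 on the control array, a drop of at least 20.5-fold for hairpin 1 and at least 29.6-fold for hairpin 3, whose signals were not well above background. On hairpin 2, where Islr stayed well above background, it was 6.33-fold lower, the smallest drop of the hairpins. The target was thus lower on each knockdown array. limma did not call it (adjusted p = 0.964), and its mean difference, which rests on 2 signals not well above background, was -4.98 as scaled here and -2.61 with normexp background correction and quantile normalization. Of 10 MSC marker genes, 9 were well above background on all 4 arrays, with summed signals of 352367 to 423249 on the hairpin arrays, against 440227 on the control array. Most of each sum came from Col1a2, so it says little about the other markers. Within that list several genes differed more than the sum and in both directions. Among them, Pdgfra was 2.23-fold and 2.25-fold lower on hairpins 2 and 3 and Thy1 3.21-fold higher on hairpin 1. Of 10 haematopoietic marker genes, 6 were well above background on all 4 arrays (Csf1r, Cd68, Cd14, Itgam, Cd34 and Cd3e) while Ptprc, Adgre1 and Lyz2 were among those above it on none. The summed signal of that list was 51496 to 58105 on the hairpin arrays, against 60190 on the control array, most of it from Cd34 (39252 to 49883 on the hairpins, against 47916 on the control). Of its other genes above background, Cd14 alone had a mean above the control (0.56). The means were -0.64 for Cd68, -0.32 for Itgam, -0.31 for Csf1r and -0.14 for Cd3e. The part of the marker genes in the values below was not tested. Of 6 endothelial markers 2 (Pecam1 and Kdr) were above background on all 4 arrays, with sums of 3326 to 3437 on the hairpins against 3617 on the control. Of 6 epithelial markers only Krt18 was, with sums of 117.0 to 222.5 on the hairpins against 144.8 on the control.

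The comparison asked which of these genes differ between the knockdown arrays and the control array. No glycosaminoglycan enzyme gene passed limma's test, and the members lay on both sides of the control, 20 of them no farther from it on average than the hairpins lay from each other (SD). Of the 40 genes, 36 were tested, and 35 of these were well above background on all 4 arrays. Extl1, Hs3st3a1, Hs3st3b1 and Chsy3 were not tested, since a probe had to be well above background either in the control or with every hairpin. In the fit over all 13567 genes, limma called 0 members higher and 0 lower at an adjusted p under 0.05, beside 0.0% and 0.346% of all genes, and the smallest adjusted p of a member was 0.964. At an unadjusted p under 0.05 limma gave 0 members, beside 4.83% of all genes. The control has no spread of its own and takes part in all 3 differences, so its own deviation would shift them together.

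The list as a whole sat at the level of the control. The median of the 36 mean differences was 0.04 log2, against 0.01 over all genes tested. In 10 members all 3 hairpins were above the control (27.8%, beside 27.6% of all genes) and in 8 all 3 were below it (22.2%, beside 24.6%). Together these are 18 of the 36 members with 1 sign, beside 52.2% of all genes, and each share is near its background. Of the 10, Hs3st1 was kept only because every hairpin was well above background, so the filter favoured its place there. For 20 members (55.6%) the mean difference was no larger than the SD between hairpins, beside 50.7% of all genes. No member was at least 1.5-fold away from the control in the same direction on all 3 hairpins, beside 4.0% of all genes.

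**Figure D1:**
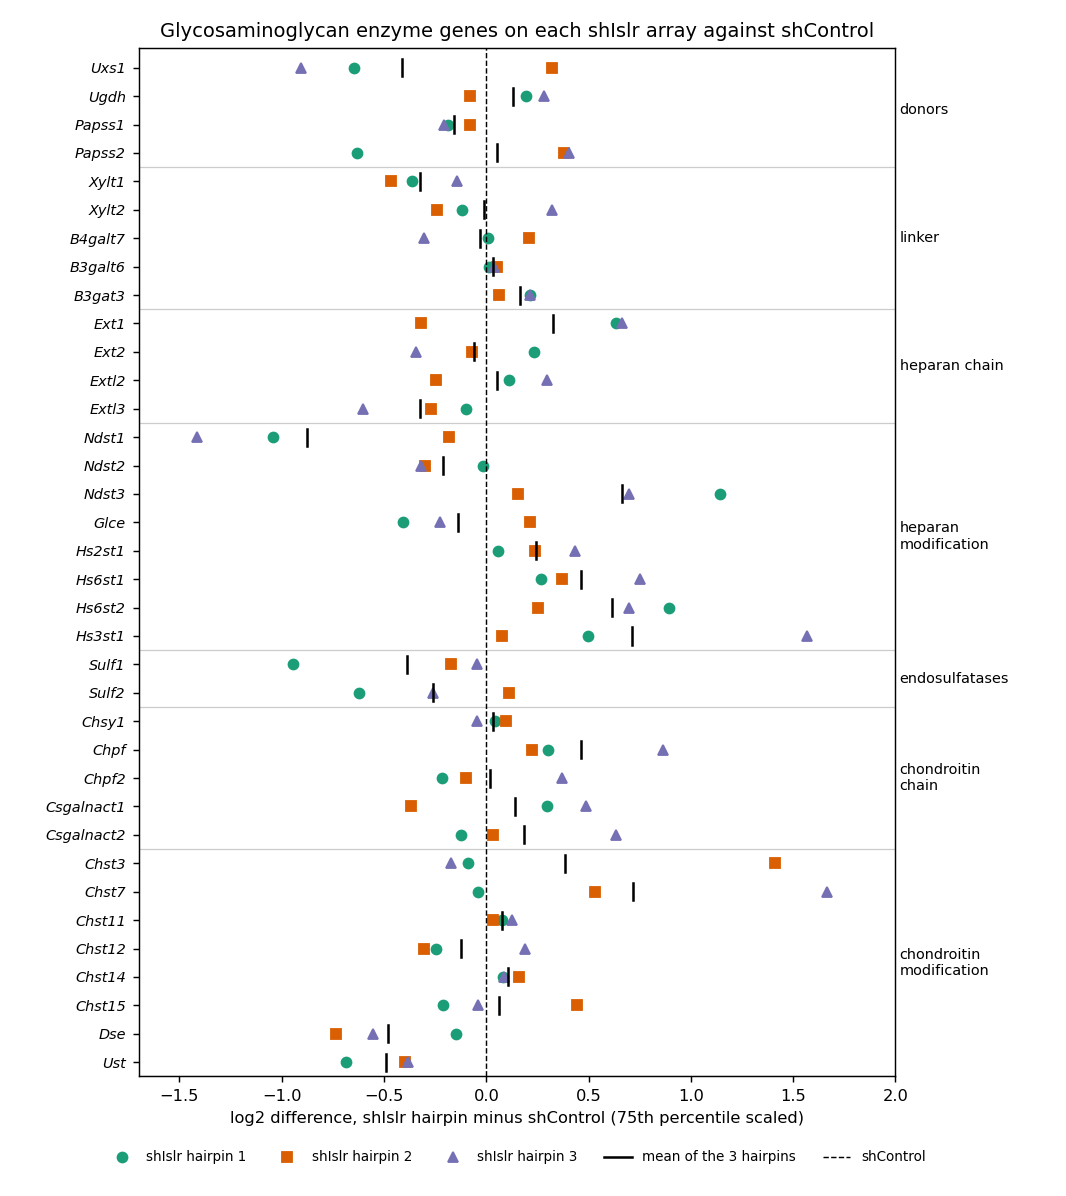
Log2 difference of each tested gene on each shIslr hairpin (symbols) from shControl (dashed line at 0), with the mean of the 3 hairpins as a bar, by step of the pathway. The linker genes stay within 0.47 log2 of the control. Hairpins 1 and 3 of Ndst1 and single hairpins of Ndst3, Hs3st1, Chst3 and Chst7 lie more than 1 log2 away.

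Between the branches, the middle of the differences varied little and their spread varied more. The median of the mean differences was -0.01 for the 5 linker genes, -0.002 for the 14 tested heparan genes and 0.08 for the 13 tested chondroitin genes, each close to the 0.01 of all genes. The parts of the heparan branch lay farther apart, at -0.002 for 4 chain, 0.35 for 8 modification and -0.32 for 2 endosulfatase genes. In the chondroitin branch the median was 0.14 for 5 chain and 0.07 for 8 modification genes. The median size of the mean difference, its sign ignored, was 0.03 in the linker, 0.33 in the heparan branch and 0.14 in the chondroitin branch, beside 0.20 over all genes. On hairpin 1 the root mean square difference from the control was 0.20 for linker genes, 0.62 for heparan genes and 0.26 for chondroitin genes. On hairpin 3 it was 0.23, 0.73 and 0.61. On hairpin 2 it was 0.25, 0.23 and 0.52. Over all genes tested it was 0.56, 0.59 and 0.71 on hairpins 1 to 3. The heparan genes were near that level on hairpins 1 and 3 and under it on hairpin 2, and the chondroitin genes were under it on hairpin 1. That level also holds genes near background, since 12716 of the 13567 were well above it on all 4 arrays. The heparan values hold Hs3st1, kept through the hairpin arrays alone. The median SD between hairpins was 0.16 for linker, 0.32 for heparan and 0.31 for chondroitin genes, beside 0.20 over all genes. These are descriptions of 4 arrays, and neither the branches nor their parts were tested against each other.

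**Figure D2:**
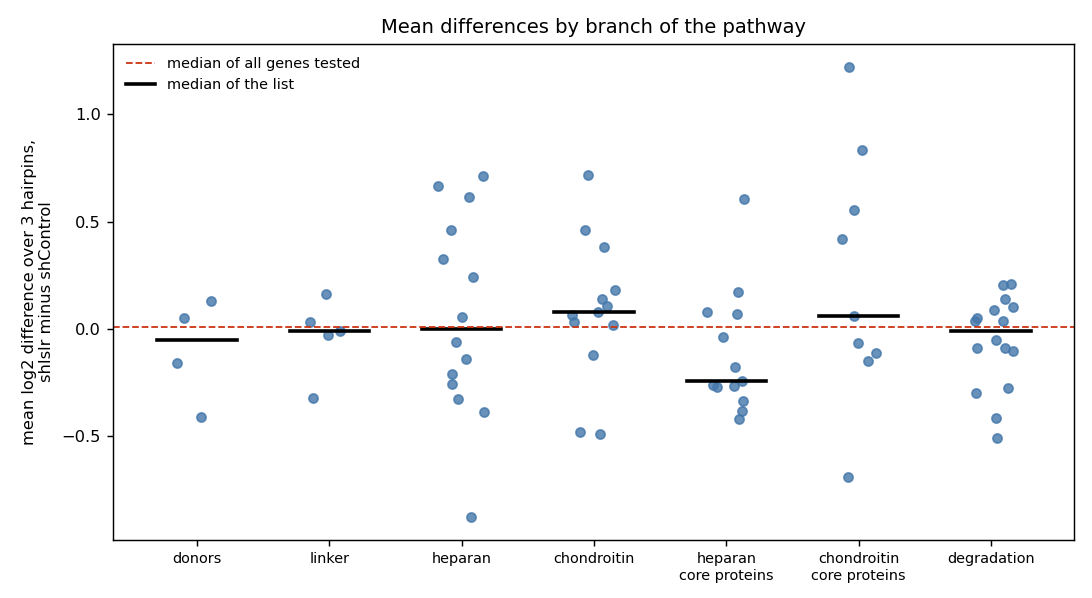
Mean log2 difference over the 3 hairpins, shIslr minus shControl, for each tested gene (points) of 4 groups of enzymes, of proteoglycan core proteins and of the degrading enzymes, with the list's median (bar) and the median of all genes tested (dashed line at 0.01). The heparan and chondroitin enzymes scatter on both sides of 0 with medians of -0.002 and 0.08, and the heparan core proteins have a median of -0.24.

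The promoters of 3 members are shown, chosen after their values were seen, because Hs6st1 is a gene with all 3 hairpins above the control, Ust one with all 3 below it and Uxs1 one on which the hairpins split. The 250 bases before the start are from RefSeq on GRCm38.p6, read 5′ to 3′ on the gene's strand. Capitals mark the GC box, searched as GGGCGG or its reverse complement CCGCCC with overlapping matches counted.
Hs6st1, chr1:36068150-36068399, plus strand: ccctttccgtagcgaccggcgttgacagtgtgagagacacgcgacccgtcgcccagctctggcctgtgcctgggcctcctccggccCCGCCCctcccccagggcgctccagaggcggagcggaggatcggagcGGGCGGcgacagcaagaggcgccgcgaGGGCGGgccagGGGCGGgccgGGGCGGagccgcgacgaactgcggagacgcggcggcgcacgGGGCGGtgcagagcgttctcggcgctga
Ust, chr10:8518826-8519075, minus strand: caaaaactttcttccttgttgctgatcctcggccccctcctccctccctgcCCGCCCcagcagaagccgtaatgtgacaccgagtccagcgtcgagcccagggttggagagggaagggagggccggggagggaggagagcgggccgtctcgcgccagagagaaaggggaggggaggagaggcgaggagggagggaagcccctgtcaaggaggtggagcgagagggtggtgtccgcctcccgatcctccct
Uxs1, chr1:43827840-43828089, minus strand: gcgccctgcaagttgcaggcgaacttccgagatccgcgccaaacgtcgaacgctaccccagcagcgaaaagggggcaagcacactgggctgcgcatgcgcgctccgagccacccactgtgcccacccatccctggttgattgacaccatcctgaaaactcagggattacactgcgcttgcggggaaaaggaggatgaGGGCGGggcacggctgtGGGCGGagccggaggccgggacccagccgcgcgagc
Hs6st1 held 6 matches, Ust 1 and Uxs1 2, and their G and C content was 76.4%, 66.4% and 66.0%, beside a median of 52.4% over the table. A match was found in 25 of the 42 windows of the 33 members that the table holds (59.5%), beside 32.7% of all 32851 windows. These shares were not matched for G and C content or for expression, and their difference was not tested. A match describes these letters and is not a binding site shown in these cells.

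Among the enzymes that make the donors, Uxs1 was the one that split the hairpins farthest. Uxs1, the enzyme that makes UDP-xylose for the first sugar of the linker, had signals of 298.8, 611.6 and 260.8 on hairpins 1 to 3, against 498.3 on the control array. It was lower on hairpins 1 and 3 and higher on hairpin 2, so the knockdown arrays lay on both sides of the control. The mean difference was -0.41 ± 0.64, and a second Uxs1 probe had the same order of signs (-0.47, 0.39 and -0.53 on hairpins 1 to 3). Papss2, a synthase of the sulfate donor PAPS, had signals of 404, 855 and 867 on the hairpins, against 667 on the control, and here hairpin 1 alone was lower (0.05 ± 0.59). Without hairpin 1 its mean difference was 0.39, and without hairpin 2 or 3 it was -0.11 and -0.12. The other PAPS synthase gene, Papss1, had signals of 2608, 2956 and 2690 against 3173, all below the control (-0.16 ± 0.07). Ugdh, which makes UDP-glucuronic acid, differed by 0.13 ± 0.19 with hairpins on both sides.

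The linker genes stayed near the control. Xylt1, 1 of the 2 xylosyltransferases that put the first sugar on the core protein, had signals of 50.1, 49.0 and 61.0 on hairpins 1 to 3, against 68.7 on the control array. All 3 hairpins were below the control, by a mean of -0.32 ± 0.16 (limma adjusted p = 0.964). The other xylosyltransferase gene, Xylt2, had signals of 2544, 2454 and 3603 against 2945, with hairpin 3 alone above the control (-0.01 ± 0.29). A second Xylt2 probe disagreed on hairpin 1, where it was at 0.38 and the first was at -0.12. B3galt6, which adds the second galactose, differed by 0.03 ± 0.02, and B3gat3, which closes the linker with glucuronic acid, by 0.16 ± 0.09, both above the control on all 3 hairpins. B4galt7, which adds the first galactose, was at 0.01, 0.21 and -0.31 on hairpins 1 to 3. No linker gene was 1.5-fold away from the control on any hairpin.

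Chain growth genes of heparan sulfate also went both ways. Ext1, which with Ext2 forms the polymerase that lengthens the chain, had signals of 2526, 1367 and 2691 on hairpins 1 to 3, against 1734 on the control array. It was 1.55-fold and 1.58-fold higher on hairpins 1 and 3 and 1.25-fold lower on hairpin 2, with a mean of 0.33 ± 0.56. Its partner gene Ext2 did not follow it: Ext2 was at 0.23, -0.07 and -0.34. Extl3, which adds the first N-acetylglucosamine and so commits a chain to heparan sulfate, had signals of 9942, 9281 and 7330 against 11381. Each hairpin was below the control (-0.33 ± 0.26), and hairpin 3 was farthest at 1.52-fold lower. Extl2, an N-acetylglucosaminyltransferase of the same family, differed by 0.05 ± 0.28.

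Among the genes of heparan sulfate sulfation and epimerisation, Ndst1 and Ndst3 had means on opposite sides of the control, and limma called neither. Ndst1 and its relatives remove acetyl groups from N-acetylglucosamine and replace them with sulfate, the step on which the later modifications depend. Ndst1 had signals of 597, 1137 and 482 on hairpins 1 to 3, against 1310 on the control array. It was 2.06-fold lower on hairpin 1 and 2.66-fold lower on hairpin 3 but only 1.13-fold lower on hairpin 2, so the mean of -0.88 ± 0.63 came with a wide spread and an adjusted p of 0.964 by limma. A pair of dimmer Ndst1 probes had lower signals than the control with each hairpin but by less (means of -0.22 and -0.40), and the mean over the 3 probes was -0.50. Ndst2 was at -0.21 ± 0.17, below the control on all 3 hairpins. Ndst3 went the other way, with signals of 72.0, 38.1 and 55.4 against 34.8 and a mean of 0.66 ± 0.50 (limma adjusted p = 0.964). Its highest array was hairpin 1, at 2.21-fold, and on hairpin 2 it was only 1.11-fold higher. These signals were dim, since the lowest signal called above background on the control array was 19.3. With normexp background correction and quantile normalization the mean of Ndst3 was 0.33.

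The heparan sulfate 6-O-sulfotransferase genes Hs6st1 and Hs6st2 lay above the control on all 3 hairpins, as did 27.6% of all genes, while Hs6st3, of the same family and outside the list of 40, was not well above background on any array. Hs6st1 had signals of 225.5, 254.0 and 328.9 on hairpins 1 to 3, against 199.7 on the control array. Hs6st2 had signals of 2469, 1659 and 2250, against 1417 on the control array. The control array was the lowest of the 4 for both genes, with hairpin 3 highest for Hs6st1 and hairpin 1 for Hs6st2. The mean differences were 0.46 ± 0.25 for Hs6st1 and 0.61 ± 0.33 for Hs6st2 (1.38-fold and 1.53-fold), and neither passed limma (adjusted p = 0.964 for each). Sulf1 and Sulf2, the secreted endosulfatases that take 6-O-sulfate off finished chains, had means on the other side. Sulf1 had signals of 308, 552 and 602 on hairpins 1 to 3, against 633 on the control array. Sulf2 had signals of 2750, 4796 and 3695, against 4521. Sulf1 was below the control on all 3 hairpins, yet hairpins 2 and 3 were within 0.18 log2 of it, and Sulf2 was above the control on hairpin 2. The means were -0.39 ± 0.49 and -0.26 ± 0.37, and without hairpin 1 they were -0.11 and -0.08. A second, dimmer Sulf1 probe gave -1.38, -0.61 and -0.06, with the same order of hairpins. The mean of the 2 sulfotransferase differences minus the mean of the 2 endosulfatase differences was 1.37, 0.34 and 0.88 log2 on hairpins 1 to 3, a pairing chosen after the values were seen and given with no test.

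Of the other modifying enzymes of heparan sulfate, Hs2st1, which sulfates iduronic acid, was above the control on all 3 hairpins (0.24 ± 0.19). Glce, the epimerase that makes that iduronic acid, had hairpins on both sides (-0.14 ± 0.32). Hs3st1, a 3-O-sulfotransferase of the kind that completes the antithrombin site of heparin, had signals of 27.7, 21.7 and 60.7 on the hairpins, against 20.9 on the control array, where it was not well above background. It entered the test through the hairpin arrays alone. Its mean signal over the hairpins was at least 1.64-fold above the control's bound, and on hairpin 3 at least 2.97-fold. Hs3st3a1 and Hs3st3b1, the genes of another pair of 3-O-sulfotransferases, were below background on all 4 arrays, with signals between 3.07 and 4.29 on the hairpins against 3.92 and 3.95 on the control.

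**Figure D3:**
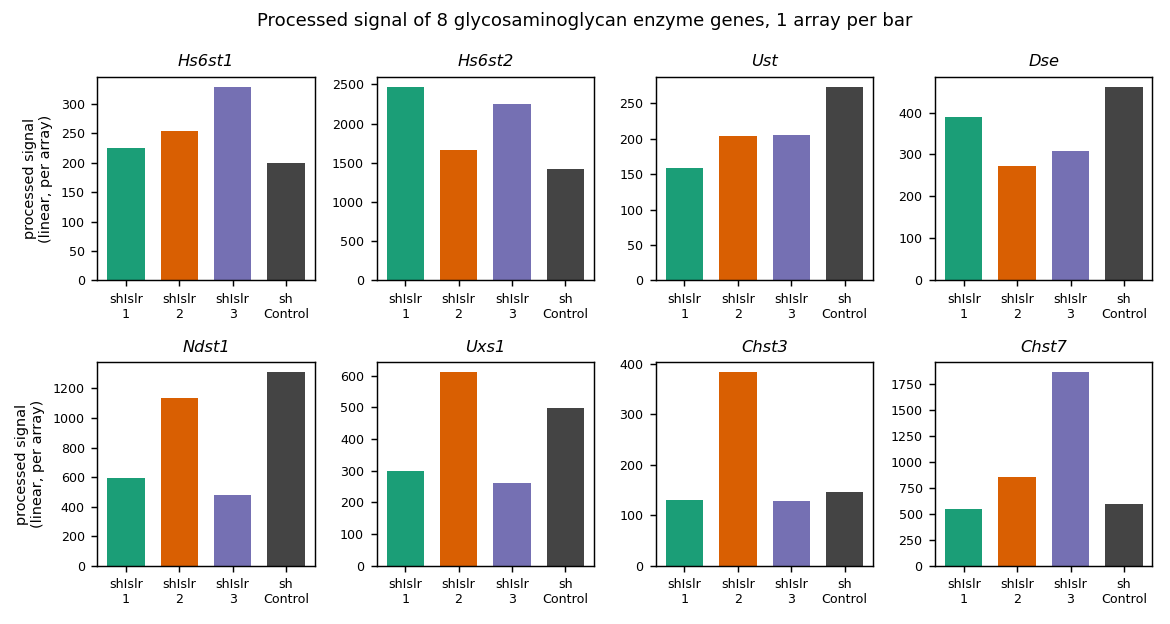
Processed signal (linear, arbitrary units) of 8 genes, 1 bar per array, with shIslr hairpins 1 to 3 left of shControl. Every hairpin bar is above the control for Hs6st1 and Hs6st2 and below it for Ust, Dse and Ndst1, hairpins 1 and 3 alone are below it for Uxs1, and 1 hairpin stands out for Chst3 (383 on hairpin 2) and for Chst7 (1861 on hairpin 3).

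In the chondroitin branch the chain growth genes were near the control or above it on hairpin 3. Chpf, a subunit of the chondroitin polymerase, had signals of 8858, 8802 and 13659 on hairpins 1 to 3, against 7665 on the control array. All 3 hairpins were above the control, hairpin 3 by 1.82-fold, with a mean of 0.46 ± 0.35. Chsy1, the synthase that works with it, differed by 0.03 ± 0.07, and Chpf2, a related polymerase factor, by 0.02 ± 0.31. Csgalnact2, which like Csgalnact1 starts the chain with N-acetylgalactosamine, had signals of 2411, 2819 and 4264 against 2802. It was 1.55-fold higher on hairpin 3 and within 0.13 log2 of the control on hairpins 1 and 2. Csgalnact1 was at 0.30, -0.37 and 0.49 on hairpins 1 to 3. Chsy3, another synthase, was below background on all 4 arrays.

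Chst3 and Chst7, sulfotransferases that act at position 6 of N-acetylgalactosamine, each stood out on 1 hairpin, and not on the same one. Chst3 had signals of 129, 383 and 127 on hairpins 1 to 3, against 147 on the control array. Chst7 had signals of 545, 849 and 1861, against 598 on the control array. Chst3 was 2.66-fold higher on hairpin 2 and slightly below the control on the others, whereas Chst7 was 3.18-fold higher on hairpin 3, 1.44-fold higher on hairpin 2 and at the control's level on hairpin 1. The means, 0.38 ± 0.89 and 0.72 ± 0.87, were smaller than their SDs. Without hairpin 2 the mean of Chst3 was -0.13, and without hairpin 3 that of Chst7 was 0.24. Chst11 and Chst12, which sulfate position 4 instead, had no such array. Chst11 had signals of 716, 727 and 773 against 723, which after scaling put every hairpin slightly above the control (0.08 ± 0.05), and Chst12 differed by -0.12 ± 0.27. Chst15, which adds a further sulfate to sugars already sulfated at position 4, differed by 0.06 ± 0.34.

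Ust and Dse, which act on the uronic acids of chondroitin and dermatan chains, had every hairpin below the control, 2 of the 8 modifying genes of the branch, which is near the 24.6% of all genes. Ust, which sulfates the uronic acid, had signals of 159, 204 and 206 on hairpins 1 to 3, against 274 on the control array. Dse, an epimerase that turns chondroitin into dermatan sulfate, had signals of 390, 272 and 308, against 461. The control array was the highest of the 4 for both genes, with hairpin 1 lowest for Ust and hairpin 2 for Dse. The differences of Ust were -0.69, -0.40 and -0.38, with a mean of -0.49 ± 0.17 (limma adjusted p = 0.964), and Ust had the lowest p of the members before adjustment. Those of Dse were -0.15, -0.74 and -0.55, with a mean of -0.48 ± 0.30 (limma adjusted p = 0.964). Chst14, which sulfates the iduronic acid-containing stretches made by Dse, had signals of 2825, 3125 and 2959 against 2848 and was above the control on all 3 hairpins after scaling (0.11 ± 0.04).

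The members past 1.5-fold are given for each hairpin, beside the share over all genes. Ext1, Ndst3 and Hs6st2 were higher on both hairpins 1 and 3, and Ndst1 and Uxs1 were lower on both. No share over all genes is given for this overlap, so it is not read as a result. The 1 control array enters both folds. On hairpin 1, 3 of the 36 genes were at least 1.5-fold higher than the control (Ext1, Ndst3 and Hs6st2; 8.33%, beside 4.05% of all genes). Another 6 were at least 1.5-fold lower (16.7%, beside 8.38%), the 6 being Uxs1, Papss2, Ndst1, Sulf1, Sulf2 and Ust. On hairpin 2, 1 gene was higher (Chst3; 2.78%, beside 7.28%) and 1 lower (Dse; 2.78%, beside 9.35%). On hairpin 3, 8 were higher (22.2%, beside 9.68%), namely Ext1, Ndst3, Hs6st1, Hs6st2, Hs3st1, Chpf, Csgalnact2 and Chst7, and 3 were lower (Extl3, Ndst1 and Uxs1; 8.33%, beside 11.4%). In all, 17 members (47.2%) passed this fold on at least 1 hairpin, beside 31.9% of all genes. These single-array folds have no replicate and no test. Hs3st1, counted on hairpin 3, was kept through the hairpin arrays alone, so the filter favoured its higher side. Hairpin 2 also stood alone on its side of the control for 9 members (25.0%, beside 18.5% of all genes), including Uxs1, Ext1, Glce and Sulf2.

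**Figure D4:**
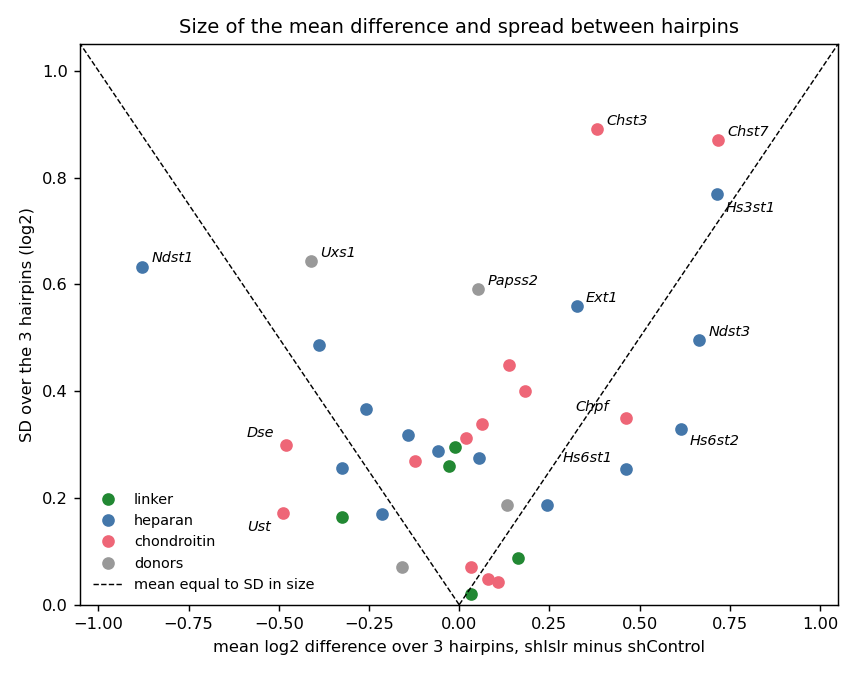
Mean log2 difference over the 3 hairpins (shIslr minus shControl, horizontal) against the SD between hairpins (vertical) for the 36 tested genes, coloured by branch. The 20 genes above the dashed lines have a mean no larger than their SD, and below the lines Ust, Dse, Hs6st1, Hs6st2, Chpf, Ndst3 and Ndst1 lie farthest from 0 to either side.

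Genes next to these enzymes in the pathway were compared through lists that hold none of the members. At an adjusted p under 0.05 limma called 0 genes in each, beside 0.0% higher and 0.346% lower of all genes. Of 21 other synthesis genes 15 were tested, and 2 were above and 7 below the control on all 3 hairpins (27.6% and 24.6% of all genes). Ndst4, of the same family as Ndst1, had signals of 209, 173 and 77.0 against 256 (-0.81 ± 0.79), with most of the distance on hairpin 3. Pxylp1, the phosphatase that removes phosphate from the linker xylose, had signals of 3486, 2505 and 2376 against 4379 (-0.62 ± 0.34). Dsel, the relative of Dse, was below the control on all 3 hairpins, with signals of 595, 693 and 731 against 992 (-0.52 ± 0.12, limma adjusted p = 0.964). Chst2, a sulfotransferase for N-acetylglucosamine, was at -0.31 ± 0.27, and the sulfate transporter gene Slc26a2 at 0.29 ± 0.12. Chst13, a relative of Chst11 and Chst12, is named because of its value. Its tested probe had signals of 4.57, 7.87 and 9.16, all not well above background, against 103 on the control array, which is at least 5.52-fold lower. It entered the fit through the control array alone, where it was high, so no p is given as support. A second Chst13 probe was not well above background on any array and had a mean difference of 0.42. With normexp background correction and quantile normalization the mean difference of the tested probe was -0.91, in place of -3.86.

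The core proteins that carry the chains were compared as 2 lists. Of 14 genes for heparan sulfate proteoglycans 13 were tested, with 1 above and 5 below the control on all 3 hairpins (27.6% and 24.6% of all genes) and a median of -0.24. The syndecan gene Sdc3 was at 0.61 ± 0.34 and Sdc2 at -0.42 ± 0.36, the perlecan gene Hspg2 at -0.38 ± 0.23, the betaglycan gene Tgfbr3 at -0.34 ± 0.30 and the glypican gene Gpc5 at -0.27 ± 0.22. Gpc5 was dim, with signals of 26.6, 31.7 and 37.9 against 39.5, and its mean lay between -0.38 and -0.09 over the 11 alternatives. Of 15 genes for chondroitin and dermatan sulfate proteoglycans 9 were tested, with 4 above and 0 below the control on all 3 hairpins (27.6% and 24.6% of all genes) and a median of 0.06. Cspg4, the gene of the pericyte proteoglycan NG2, had signals of 433, 308 and 1096 against 233 (1.22 ± 0.94), highest on hairpin 3. Spock2, a testican gene, had dim signals of 44.1, 90.5 and 90.9 against 41.4 (0.83 ± 0.56). Over the 11 alternatives its mean lay between 0.41 and 1.16. Cd44, a hyaluronan receptor gene whose product can carry such chains, was at 0.42 ± 0.08. Of the 16 genes of lysosomal and other degradation all were tested, with 2 above and 3 below the control on all 3 hairpins (27.6% and 24.6% of all genes) and a median of -0.01. Ids and Idua, which remove sulfate from iduronic acid and then the iduronic acid itself, were at -0.51 ± 0.43 and -0.42 ± 0.39, and the sulfatase gene Arsk at -0.30 ± 0.20. Gusb, the glucuronidase gene, and Galns, a sulfatase gene, were at 0.21 ± 0.07 and 0.20 ± 0.09.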

How the data were processed

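Per the file headers, the authors read out 4 one-colour (Cy3) Agilent arrays of design 028005 (build mm9), all on 1 slide, using Feature Extraction 11.5.1.1 under protocol GE1_1105_Oct12. The deposited values used are processed signal intensity, background-subtracted within each array; the deposited series table is the same intensity times 1 constant per array. Repeated features were averaged per probe as log2 values, less the log2 of the array's 75th percentile. RefSeq accessions named 28026 of 55681 probes (21154 genes); 27655 probes stayed unnamed and unused. A probe was kept if it was well above background in the control or with every hairpin, and a gene was read from its brightest kept probe by mean signal (13567 genes); 7 members had several probes. limma 3.58.1 in R 4.3.3 (lmFit, eBayes, two-sided, Benjamini-Hochberg over all genes, threshold 0.05) compared 3 hairpins with 1 control, which is assumed to vary like the hairpins. The test was tried on simulated data whose control was drawn with the spread of the hairpins, so the trial could not check that assumption. Folds against signals below background are bounds against the lowest signal called above background on that array, or the probe's own where higher. All members are named; from other lists up to 5 genes with 1 sign on all 3 hairpins and signal above background on all 4 arrays. Alternatives were quantile normalization, median centring, normexp (offset 50, on median spot signals) with quantile normalization, the series table, 2 other filters, the mean over probes, an intensity trend, a threshold of 0.10 and each hairpin left out; a filter on at least 1 array was added later. The number of arrays limits the precision. Members and lists were chosen with earlier results of these data known. The values of 1 marker gene are not reported here.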

Additional observations from a re-analysis of the deposited data

Results flagged for a closer look

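One result came from a gene outside the test. Extl1, a glycosyltransferase gene of the Ext family, had a signal of 21.4 on hairpin 3, where it was well above background, while its signals of 12.4 on hairpin 1, 5.0 on hairpin 2 and 4.91 on the control array were not. Against the lowest signal called above background on the control array, hairpin 3 was at least 1.13-fold higher. The groups were too small for a search for outlying arrays.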

How the results depend on the processing

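Under all 11 alternatives, at a threshold of 0.10 and with the later filter on at least 1 array, limma called 0 members higher and 0 lower, and the smallest adjusted p of a member was 0.602 (Ndst1 without hairpin 2). Of the 36 members, 23 kept the sign of their mean difference in every alternative. Over all genes, the 47 lower calls became 75 with quantile normalization, 81 at a threshold of 0.10 (with 2 higher) and 0 with normexp, with no filter, with the filter on all 4 arrays, with an intensity trend and without any 1 hairpin (0 to 0). The linker median of -0.01 moved to 0.024 with quantile normalization and to 0.033 with the mean over probes, and lay between 0.024 and 0.040 with a hairpin left out, when the heparan median of -0.002 lay between 0.0079 and 0.075. Signs turned with quantile normalization for B4galt7 (0.024) and Chsy1 (-0.0039), with normexp for B4galt7 (0.031), B3galt6 (-0.0042), Ext2 (0.033), Chsy1 (-0.013) and Chst14 (-0.017), with the mean over probes for Xylt2 (0.11) and with no filter, which takes another probe, for Chst13 (0.42). With a hairpin left out they turned for 11 members, with ranges of -0.18 to 0.10 (Xylt2), -0.15 to 0.11 (B4galt7), -0.21 to 0.082 (Ext2), -0.067 to 0.20 (Extl2), -0.00046 to 0.070 (Chsy1), -0.16 to 0.14 (Chpf2), -0.037 to 0.39 (Csgalnact1), -0.045 to 0.33 (Csgalnact2), -0.13 to 0.66 (Chst3), -0.13 to 0.20 (Chst15) and -0.12 to 0.39 (Papss2). The cause was not tested. No paired analysis was possible because the control group has 1 array and the hairpin numbers name target sequences.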
